A study of Mus musculus with 5 samples.

Results

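The renin-angiotensin system genes of the mouse kidney were examined through 6 members, Agt, Ren1, Ace, Agtr1a, Enpep and Atp6ap2, taken by gene symbol from the 32285 genes measured. All 6 had counts in the kept cells. Single cells came from kidneys of male C57BL/6J mice, several weeks old, in 5 samples: sham surgery and days 1, 3, 14 and 28 after unilateral ischemia-reperfusion (UIR), a model of acute kidney injury (AKI) in which the left renal pedicle was clipped and the right kidney left intact. The protocol names 3 mice for each sample, there was 1 sample per condition, and the labels give the cell type as goblet cell, which the markers of kidney cells below do not bear out. The counts came as 1 matrix of 5 libraries, numbered 1 to 5 by the end of each barcode, and no label ties a number to a condition. The study's methods describe more matrices than the libraries analysed here, and how these relate is not given in the sources used here. So the libraries are given by number, no comparison of sham with UIR or between days was made, and every interval below covers counting error alone.

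Angiotensinogen, the product of Agt, is the single substrate of the system. Renin cuts it to angiotensin I, angiotensin-converting enzyme (the product of Ace) trims that to angiotensin II, and the type 1 receptor, encoded in mice mainly by Agtr1a, carries most of its known effects on vessel tone and sodium reabsorption. Aminopeptidase A, the product of Enpep, removes the first residue of angiotensin II, and Atp6ap2 encodes the (pro)renin receptor, which is also an accessory subunit of the vacuolar proton pump. In the kidney, renin is classically made by the juxtaglomerular cells of the afferent arteriole, which are modified smooth muscle cells, while angiotensinogen and converting enzyme are known from the proximal tubule.

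After cell calling, 57733 cells were kept, 10020, 11311, 19026, 8297 and 9079 in libraries 1 to 5, from libraries of 82426945 to 139382799 UMIs (unique molecular identifiers, each counting 1 captured transcript). Each cell took the class whose marker genes it held best, and none of the 6 members was a marker. Proximal tubule cells made up 79.4% of cells (45849), of which 12416 carried markers of its first segment (S1), 6425 those of its last (S3) and 27008 neither set alone. The smallest classes behind a leading level were 31 non-classical monocyte-like cells, 67 mural cells (smooth muscle, pericyte and mesangial markers), 99 intercalated cells and 116 podocytes. Only 264 of the 19026 cells of library 3 were S3 cells, against 699 to 2085 in the others. Of the kept barcode sequences, 353 occurred in 2 or more libraries (707 cells). A class of 77 haemoglobin-led cells that also held podocyte genes, 9 thin limb cells and 4990 cells with no class are left out of the orders below.

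The 6 members were led by 5 classes, with mural cells leading both Ren1 and Agtr1a. Levels are CPM, the counts of a gene per 1000000 UMIs summed over a class. Ren1 was led by mural cells at 4438 CPM, 386-fold above all other kept cells. Ace was led by non-classical monocyte-like cells at 759 CPM (22.8-fold), Enpep by podocytes at 744 CPM (16.4-fold), Atp6ap2 by intercalated cells at 400.0 CPM (6.27-fold), Agtr1a by mural cells at 71.5 CPM (3.44-fold) and Agt by S3 proximal tubule at 84.1 CPM (2.82-fold). All 6 members passed 2-fold in their leading class, where 72.1% of the 13506 genes with at least 10 CPM in some class did so, and 3 passed 10-fold, where 29.3% of genes did. Agtr1a no longer passed 2-fold without library 2 (log2 ratio 0.72, -0.59 to 1.77), and Enpep no longer passed 10-fold with podocytes taken from clusters (2.47, 2.35 to 2.59). The cluster named podocyte held 719 cells, of which 51.3% were gated as proximal tubule. Because proximal tubule cells held 86.1% of all UMIs, most copies of a gene could still lie there: they held 95.6% of the Agt, 96.1% of the Ace, 95.9% of the Agtr1a, 91.5% of the Enpep and 78.4% of the Atp6ap2 UMIs.

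**Figure D1:**
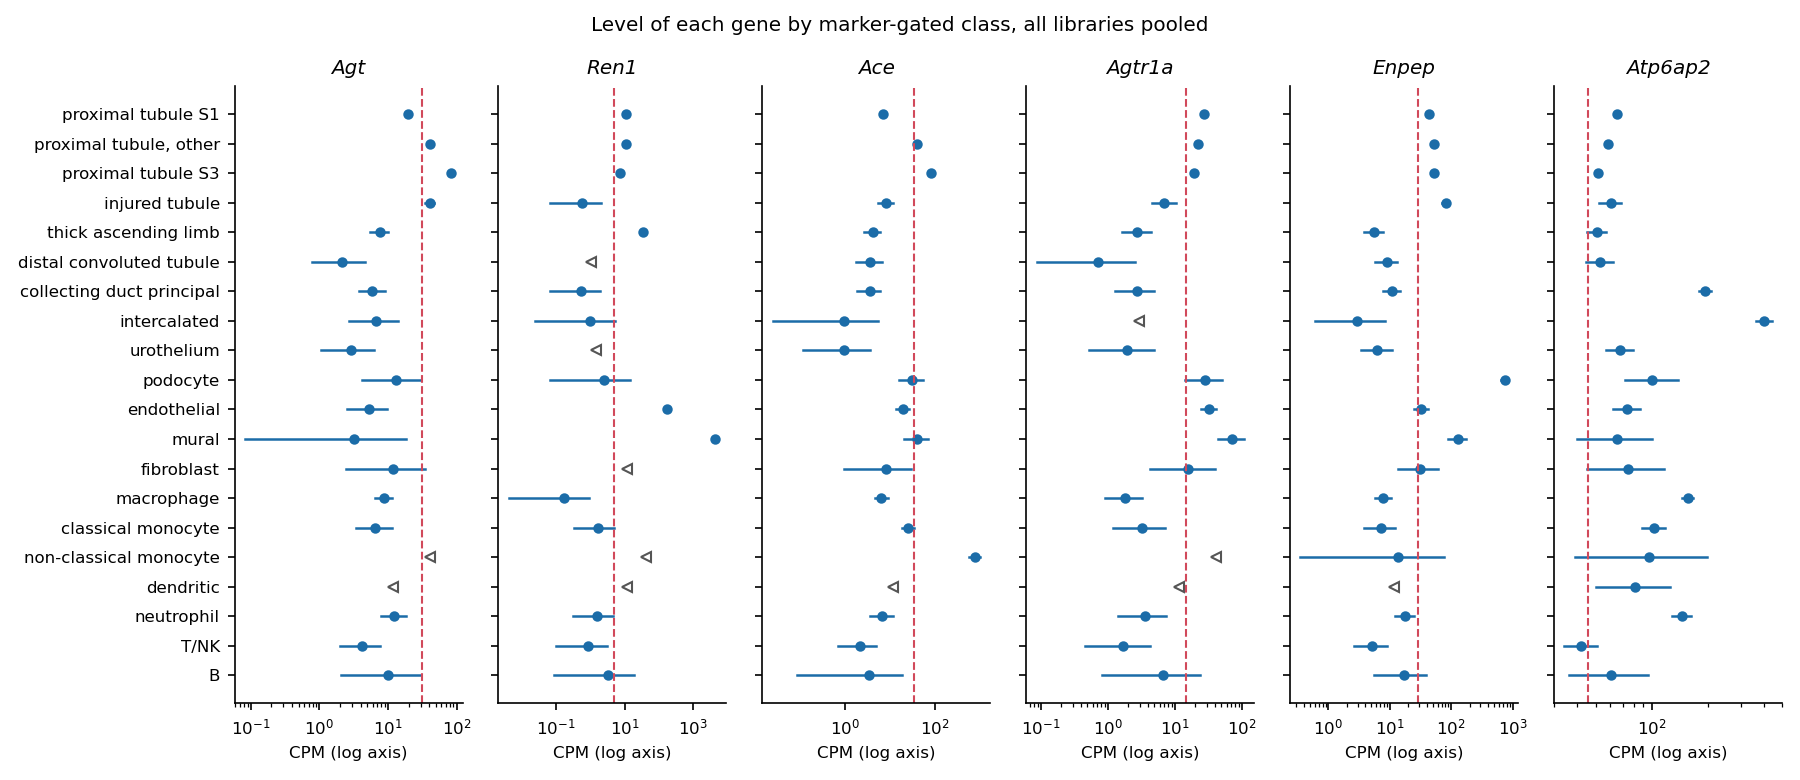
Level of each of the 6 genes in CPM (log axis, a different range in each panel) in 20 marker-gated classes pooled over 5 libraries. Points are summed counts with exact Poisson 95% intervals, open triangles mark the limit that a count of 0 allows (3 counts), and the dashed line is the level in droplets of at most 100 UMIs. Ren1 stands out in mural cells, Ace in non-classical monocyte-like cells, Enpep in podocytes and Atp6ap2 in intercalated cells.

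The bases just before each transcription start are shown for the members whose starts were held. No link between these bases and the levels was tested. They are 60 bases of RefSeq sequence (GRCm38.p6, read 5′ to 3′ on the gene's strand), for Agt at chr8:124569707-124569766 on the minus strand, Ren1 at chr1:133350614-133350673 on the plus strand, the first of 2 Ace starts at chr11:105967888-105967947 on the plus strand, Enpep at chr3:129332750-129332809 on the minus strand and Atp6ap2 at chrX:12587699-12587758 on the plus strand. Capitals mark the core TATA box letters TATAAA on either strand.
Agt: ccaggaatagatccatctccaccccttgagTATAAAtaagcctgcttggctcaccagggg
Ren1: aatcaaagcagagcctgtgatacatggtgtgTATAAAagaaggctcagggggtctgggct
Ace: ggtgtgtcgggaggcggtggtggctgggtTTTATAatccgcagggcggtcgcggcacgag
Enpep: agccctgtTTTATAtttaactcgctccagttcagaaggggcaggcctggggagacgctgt
Atp6ap2: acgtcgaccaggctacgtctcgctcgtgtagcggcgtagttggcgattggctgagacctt
The letters began 30 bases before the start of Agt and 29 before that of Ren1, on the gene's own strand. In Ace and Enpep they lay on the opposite strand, from 31 and 52 bases before the start. Of 32851 mouse promoters, 3.92% held these letters in the same window. Atp6ap2 and the second Ace start (chr11:105975129-105975188) did not hold them in this window. Agtr1a is named only.

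Agt (ENSMUSG00000031980, chr8:124556534-124569706, minus strand, protein coding) was a gene of the proximal tubule, highest at its S3 end. It had 12455 UMIs in 8376 cells. Its level was 84.1 CPM in S3 cells (95% interval 81.7 to 86.6), 41.4 in the proximal tubule cells of neither set (40.3 to 42.5), 40.5 in injured tubule cells (34.2 to 47.7) and 19.3 in S1 cells (18.4 to 20.3). The second and the third of these overlapped, and the steps on either side of them did not. All other classes in the order lay at or below 13 CPM, while the 9 thin limb cells left out of it were at 124 CPM (75.8 to 192) from 20 UMIs in 6 cells. Droplets of at most 100 UMIs, which hold free RNA, were at 30.9 CPM, above S1 cells and all these other classes. The share of free RNA in each cell was not measured. So expression is neither read from nor excluded by the low Agt counts in S1 cells, leukocytes, endothelium and distal tubule. S1 cells were above thick ascending limb (7.56 CPM, 5.53 to 10.1) and distal convoluted tubule cells (2.15 CPM, 0.791 to 4.69). Intervals of some small classes, such as podocytes (4.22 to 30.4), overlapped that of S1 cells. In 31 non-classical monocyte-like and 38 dendritic cells no Agt UMI was seen, which allows up to 41.4 and 11.7 CPM.

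Within libraries 1 to 5, S3 cells held Agt at 104, 74.3, 35.4, 50.2 and 90.7 CPM and S1 cells at 18.2, 14.2, 25.4, 14.9 and 8.96 CPM. S3 was above S1 in every library. The log2 ratio of S3 to S1 was 2.12 over all cells (95% interval 2.04 to 2.21) and ran from 0.48 in library 3 (0.11 to 0.82) to 3.34 in library 5 (2.99 to 3.70). In every library S1 cells were below that library's droplets, which ran from 23.8 to 40.1 CPM, and in library 3 the interval of S3 cells (27.7 to 44.5) overlapped that of its droplets (25.3 to 36). Library 3, with 264 S3 cells, had both the lowest S3 level and the highest S1 level. Over all proximal tubule cells Agt was 67.3, 44.3, 28.1, 32.3 and 53.2 CPM in libraries 1 to 5, so the libraries with the larger shares of S3 cells (1 and 5) also had the higher 2 of these levels and library 3 the lowest. The part of segment make-up in that order was not tested.

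Ace (ENSMUSG00000020681, chr11:105967945-105989964, plus strand, protein coding) followed the same direction along the tubule more steeply and had a second site of high level in blood-derived cells. In S3 cells it was at 80.1 CPM (77.7 to 82.5), in proximal tubule cells of neither set at 38.7 (37.7 to 39.8) and in S1 cells at 6.79 (6.23 to 7.38), a log2 ratio of S3 to S1 of 3.56 (3.43 to 3.69). In libraries 1 to 5, S3 cells held 63.8, 108, 46.2, 56.1 and 84.5 CPM, and S1 cells 3.69, 8.06, 6.41, 7.65 and 7.45 CPM. The groups did not overlap, and the ratio ran from 2.85 in library 3 to 4.11 in library 1. Droplets of at most 100 UMIs were at 16, 31.8, 25.6, 68.1 and 49.8 CPM, above S1 cells in every library and above S3 cells in library 4. So expression is neither read from nor excluded by the S1 level, and the S3 level of library 4 has the same limit. Cells of at least 1000 UMIs were cut down at random to that depth (thinning), and shallower cells were left out. After this, 7.23% of 6389 S3 cells and 0.672% of 12199 S1 cells held an Ace UMI, against 0.243% of 824 thick ascending limb cells. Before thinning, the shares were 41.2%, 4.16% and 2.51%, at median depths of 7735, 5845.5 and 5796.5 UMIs.

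Agt and Ace were the members at least 2-fold higher in S3 than in S1 cells. Of the 7992 genes with at least 10 CPM in either group, 4.45% were that much higher in S3 and 6.79% that much lower, with a median log2 ratio of -0.14. No member was 2-fold lower. Agtr1a was at 19.4 CPM in S3 and 27.5 in S1 cells (log2 ratio -0.50, -0.61 to -0.40) and lower in S3 in all 5 libraries, although the intervals of libraries 3 and 4 included 0. Atp6ap2 was at 51.6 in S3 and 65.3 in S1 cells (-0.34, -0.41 to -0.27), again lower in S3 in each library, with an interval that included 0 in library 3 (-0.22, -0.52 to 0.07). Enpep was at 51.7 in S3 and 42.8 in S1 cells (0.27, 0.20 to 0.34), higher in S3 in libraries 1 to 4 and not in library 5 (-0.12, -0.32 to 0.09). With segments gated on thinned counts its ratio was -0.05, so no direction is read for Enpep between the segments. The value for Ren1 rested on 1 cell on each side and is not read as a level of the segment.

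A finer order of cells showed what these pooled levels hide. Proximal tubule cells were binned by the mean scaled level of 6 S3 markers minus that of 5 S1 markers. From the lowest bin (5988 cells) to the highest (164 cells) Agt went from 18.8 to 188 CPM and Ace from 4.48 to 152 CPM. Both pooled levels rose from each bin to the next. In library 3 Agt did not, at 30.4, 23, 28.9, 38.6 and 22 CPM in the first 5 bins, the last from 169 cells. Agtr1a fell from 29.6 to 4.67 CPM, the last from 7 UMIs, and Atp6ap2 from 69.4 to 39.4 CPM. Both ended under their level in droplets of at most 100 UMIs, at 14.9 and 45.8 CPM. For Atp6ap2 the interval of the last bin (30 to 50.8) overlapped that of the droplets (43 to 48.7). Enpep did not follow either course. Its pooled level rose from 42.1 CPM in the lowest bin to 57.1 CPM (54.7 to 59.5) in the fifth, though not at every step in libraries 2, 3 and 5. It then dropped to 18.9 CPM (15.8 to 22.4) in the sixth (847 cells) and 5.34 CPM (2.31 to 10.5) in the last. Droplets of at most 100 UMIs held Enpep at 29.2 CPM (26.9 to 31.5), above the level of the sixth and last bins.

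The fall of Enpep at the S3 end was present in each library that had 20 or more cells there. From the fifth to the sixth bin it went from 54.1 to 26.8 CPM in library 1, from 71.5 to 31.2 in library 2 and from 46.2 to 11.1 in library 5, while Ace rose over the same step in all 3. Libraries 3 and 4 had too few cells in the last 2 bins to give a value. The last bin had 20 or more cells in library 5 alone. Median depth fell from 5593.5 UMIs per cell in the lowest bin to 4511 in the third and then rose to 8342.5 in the highest, and its part in these levels was not tested beyond the use of CPM.

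**Figure D2:**
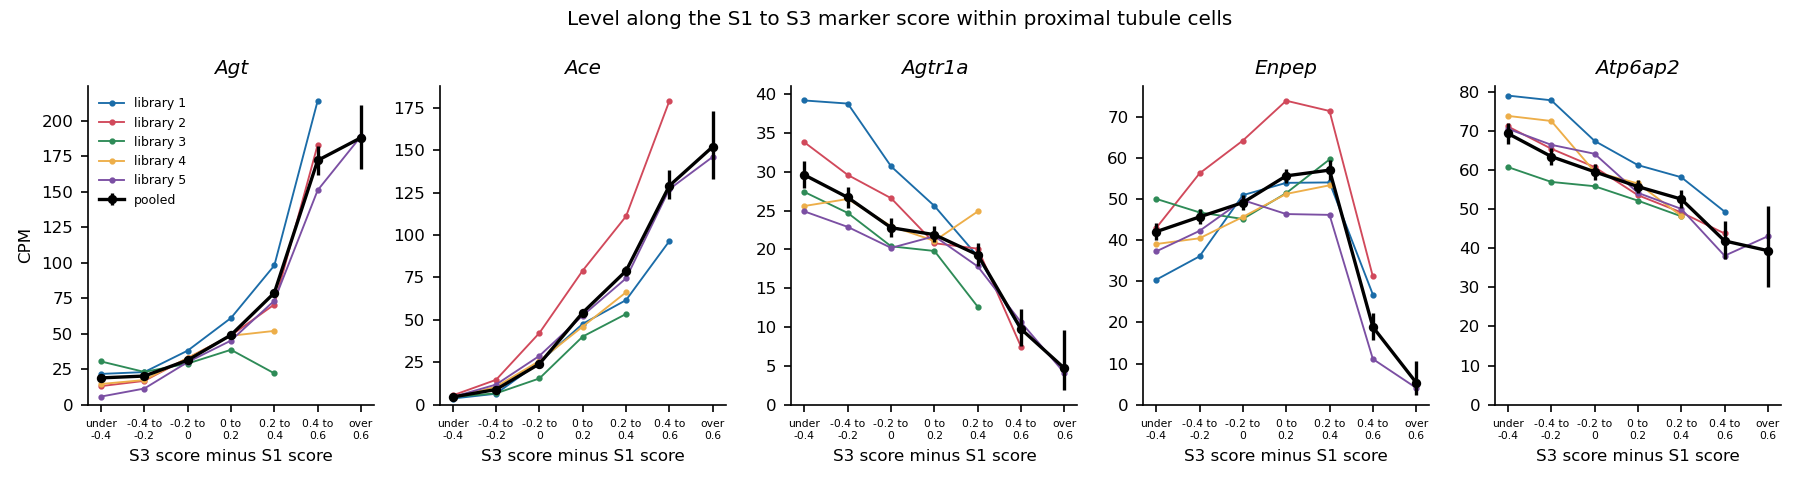
Level in CPM of 5 genes in proximal tubule cells binned by S3 score minus S1 score (S1-like at the left, S3-like at the right). Thin lines are libraries with at least 20 cells in a bin, and the black line is the pooled level with exact Poisson 95% intervals. Agt and Ace rise to 188 and 152 CPM, while Enpep peaks at 57.1 CPM and then falls to 5.34 CPM.

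Outside the tubule, Ace was highest in the non-classical monocyte-like cells, patrolling monocytes named here from Treml4, Adgre4, Ear2, Eno3 and Cd300e. They held 55 Ace UMIs, with 26 of the 31 cells having at least 1 and no cell more than 5. The level was 759 CPM (572 to 988), a log2 ratio of 4.51 (4.10 to 4.89) to all other cells. After thinning, 53.3% of 30 such cells held an Ace UMI (34.3 to 71.7), against 2.73% of 439 classical monocytes and 0.938% of 959 macrophages. By library, 2 of 2, 15 of 16 and 8 of 12 cells had a UMI in libraries 1, 2 and 3, library 4 had no such cell, and the only cell of library 5 had 1. Classical monocytes were at 25.1 CPM (18.4 to 33.5) and endothelial cells, a known site of converting enzyme in other vascular beds, at 18.8 CPM (13.2 to 26.1), both at or under the 33.1 CPM of droplets of at most 100 UMIs.

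Ren1 (ENSMUSG00000070645, chr1:133350510-133360325, plus strand, protein coding) was held by very few cells. Of its 5035 UMIs in 280 cells, 5 cells held at least 50%, where the other members needed 2133 to 4459 cells. The 34 cells with 10 or more Ren1 UMIs held 93.3% of the total, with a lowest of 10, a median of 72.5 and a highest of 812 UMIs. Another 217 cells had a single UMI. All cells outside the 34 together were at 1.06 CPM, below the 4.96 CPM of droplets of at most 100 UMIs, although mural and endothelial cells outside the 34 were above that level, at 257 and 9.76 CPM.

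Of these 34 cells, 16 were gated as mural, 8 as proximal tubule, 5 as endothelial, 2 as thick ascending limb and 3 had no class. The 4 highest, with 812, 688, 390 and 385 UMIs, were all gated as proximal tubule, and those 8 cells held 52.3% of all Ren1 UMIs. Ren1 made up 5.72%, 5.64%, 5.95% and 3.72% of all UMIs in those 4 cells and reached 13.9% in a mural cell of 2198 UMIs. The 8 cells also carried RNA of another kind: 7 of them had a UMI of at least 1 of the 6 mural markers, whose summed count was 5.0 UMIs at the median against 0 in proximal tubule cells at large and 25 in the 16 mural cells. Their proximal tubule markers, 72.5 UMIs at the median against 48 in the whole class, were not low, and their median depth was 11270 UMIs against 5237.

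When the cells were clustered on variable genes without the 6 members or the other genes of the system, 33 of the 34 fell into 1 cluster. It held all 8 of the proximal tubule-gated cells, all 16 of the mural-gated ones, 63 of the 67 mural and 290 of the endothelial cells, and took an endothelial name from its markers. The doublet score of Scrublet put 4 of the 34 among the 10.3% of cells left out by that alternative, and 1 of the 8. Whether a droplet held more than 1 cell was not tested for each of them. The Ren1 level of proximal tubule cells, 10.3 CPM, was 0.748 CPM without the 8.

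**Figure D3:**
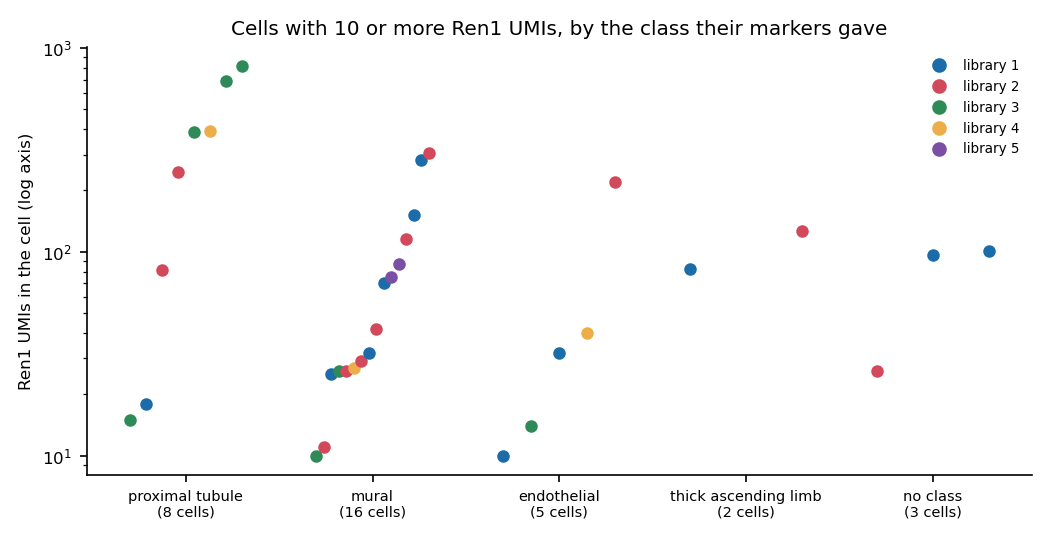
Ren1 UMIs (log axis) in each of the 34 cells with 10 or more, placed by the class their markers gave and coloured by library, 1 point per cell. The 4 highest cells, 385 to 812 UMIs, lie in the proximal tubule column, and the 16 mural cells run from 10 to 306.

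Among genes of at least 100 CPM in them, the highest ratio to all other cells was that of Akr1b7, an aldo-keto reductase known as a marker of renin cells, with 216 UMIs in 28 of the 34 cells and 760.4 against 0.56 CPM (1357-fold). Npy1r, a neuropeptide Y receptor, followed at 608-fold, then the smooth muscle genes Myh11 (433-fold, 29 cells) and Cnn1 (428-fold, 11 cells), Sparcl1 (417-fold, 31 cells), Rgs7bp (387-fold), Rergl (287-fold), Pcp4l1 (282-fold), Rgs5 (262-fold, 33 cells) and Sncg (259.6-fold). For Cnn1 and Myh11, 1 cell held 46.4% and 42.7% of the UMIs. Myh11 and Rgs5 are among the mural markers by which 16 of these cells were gated.

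By library, the 34 cells numbered 11, 11, 7, 3 and 2, or 1.1, 0.973, 0.368, 0.362 and 0.22 per 1000 kept cells. Library 1 and 2 together held 22 of them. The Ren1 level over all kept cells was 16.8, 19.7, 22.5, 9.25 and 3.73 CPM, an order led by library 3, where single cells of 812 and 688 UMIs held most of its 2132 UMIs. Among mural cells, 11 of 17, 10 of 28, 5 of 11, 1 of 5 and 3 of 6 had a Ren1 UMI, with 572, 551, 49, 27 and 167 UMIs. The log2 ratio of mural to all other cells was 8.59 (8.50 to 8.68), and 9.51 without library 3. At these numbers of cells no order of libraries in Ren1 can be read. Mural cells with fewer than 10 Ren1 UMIs (51 cells) were still at 257 CPM (191 to 337).

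Agtr1a (ENSMUSG00000049115, chr13:30336441-30382867, plus strand, protein coding) had its highest level in mural cells and its bulk in the proximal tubule. Mural cells were at 71.5 CPM (44.8 to 108) from 22 UMIs in 14 of 67 cells, 15 of them from library 2, with 0, 15, 6, 1 and 0 UMIs in libraries 1 to 5. The log2 ratio to all other cells was 1.78 (1.11 to 2.38), so the lead rests largely on library 2. Endothelial cells (32.5 CPM, 24.9 to 41.6), podocytes (28.6, 14.3 to 51.2) and S1 cells (27.5, 26.4 to 28.7) followed, and these 3 did not differ beyond their intervals. All 11 podocyte UMIs came from the 73 podocytes of library 2. Injured tubule (7.04), thick ascending limb (2.79), collecting duct principal (2.71) and distal convoluted tubule cells (0.718) were below the 14.9 CPM of the droplets. In 99 intercalated cells no UMI was seen, which allows up to 2.9 CPM. Over all proximal tubule cells Agtr1a varied little, at 26.1, 24.3, 22.6, 23.5 and 19.7 CPM in libraries 1 to 5.

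Enpep (ENSMUSG00000028024, chr3:129269175-129332720, minus strand, protein coding) was led by podocytes, the filtering epithelium of the glomerulus. They were at 744 CPM (660.3 to 835), from 286 UMIs in 62 of 116 cells, a log2 ratio of 3.93 (3.75 to 4.09) to proximal tubule cells. After thinning, 47.1% of 68 podocytes held a UMI (34.8 to 59.6), against 4.16% of S1 and 0.728% of thick ascending limb cells. The other 48 podocytes were too shallow to thin. Podocytes with a UMI were found in every library, in 5 of 6, 39 of 73, 7 of 17, 5 of 6 and 6 of 14 cells. A single podocyte held 21.3% of the UMIs, and without it the class was at 663 CPM. Mural cells came next (127 CPM, 90.1 to 173, with 107, 186, 76.0, 120.1 and 77.1 CPM in libraries 1 to 5), an interval that overlapped that of injured tubule cells (80.8, 71.7 to 90.7). Within mural cells, those with 10 or more Ren1 UMIs were at 82.5 CPM of Enpep (37.7 to 157) and the rest at 151 CPM (102 to 216).

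Atp6ap2 (ENSMUSG00000031007, chrX:12587801-12617049, plus strand, protein coding) was detected in every class and led by cells that carry the proton pump. Intercalated cells, which secrete acid or base through it, were at 400.0 CPM (362 to 440.4), with 414 UMIs in 81 of 99 cells and a UMI in 10 of 10, 15 of 19, 41 of 54, 3 of 4 and 12 of 12 cells of libraries 1 to 5. Collecting duct principal cells followed at 193 CPM (179.6 to 208), with 210.3, 187, 166, 251 and 237 CPM by library. Macrophages (156, 146 to 166) and neutrophils (145, 128 to 163) overlapped each other in the pooled counts and lay above classical monocytes (103, 88.5 to 118). That order did not hold within libraries: 332 of the 441 classical monocytes came from library 3, where they were at 93.1 CPM and neutrophils at 77.5 CPM (60.9 to 97.3), and in library 2 neutrophils (211 CPM, 179 to 248) were above macrophages (157 CPM, 141 to 174). The lowest was T/NK cells at 41.8 CPM (34.0 to 50.9), near the 45.8 CPM of the droplets. Over all proximal tubule cells the libraries ran from 56.0 to 63.8 CPM.

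The injured tubule class was compared with uninjured proximal tubule, between 235 cells of an injured tubule class (markers Havcr1, Krt20, Vcam1, Dcdc2a and Sema5a, led by Tagln, Vcam1, Akap12, Cp, Ankrd1, Cdh6, Adamts5, Map1b, Acta2 and Ncam1) and 34929 proximal tubule cells with no UMI of these 5 markers. Of the leading genes Vcam1 alone is one of the class's markers, and Tagln and Acta2 are smooth muscle genes, of which Acta2 also led the mural class. Each cell took its best-scoring class, so the injured class left out cells that scored higher for proximal tubule markers. The part of this choice and of the smooth muscle genes in the levels below was not tested. Ace was at 7.88 CPM in injured and 34.6 in uninjured cells, a log2 ratio of -2.13 (-2.72 to -1.60). Agtr1a was at 7.04 and 23.5 CPM (-1.74, -2.37 to -1.17). Both were lower in each of the 3 libraries with 20 or more injured cells: Ace at 6.76, 11.1 and 3.14 CPM in injured against 38.0, 51.5 and 11.8 CPM in uninjured cells of libraries 1, 2 and 3, and Agtr1a at 6.76, 7.21 and 6.29 against 26.6, 24.7 and 23.1 CPM. In injured cells, the pooled levels rest on 28 Ace and 25 Agtr1a UMIs, and both are under the 33.1 and 14.9 CPM of the droplets. Those of library 3 rest on 2 Ace UMIs (0.381 to 11.4 CPM) and 4 Agtr1a UMIs (1.71 to 16.1 CPM). Libraries 4 and 5 had 10 and 3 injured cells and gave no value.

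For Agt and Atp6ap2 the log2 ratios were 0.05 (-0.20 to 0.29) and 0.02 (-0.18 to 0.21), both including 0. With clusters in place of gates they were 0.22 (0.07 to 0.37) and 0.16 (0.03 to 0.28), and with at most 10% mitochondrial counts Agt was 0.47 (0.20 to 0.72), all above 0. For Agt, library 3 stood apart at -1.18 (-2.50 to -0.13), from 7 UMIs in injured cells, against -0.01 and 0.33 in libraries 1 and 2. Enpep was at 80.8 against 47.1 CPM (0.78, 0.60 to 0.95), higher in libraries 1 (1.09) and 2 (0.70) and not in library 3 (-0.39, -1.05 to 0.20). Of the 9418 genes with at least 10 CPM in either group, 29.6% were at least 2-fold higher and 11.5% at least 2-fold lower in injured cells, and the median gene had a log2 ratio of 0.51. Against that shift Ace and Agtr1a, 2 of the 5 members measured, were the ones past 2-fold lower, and none was 2-fold higher.

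Other cells with injury markers, which kept the proximal tubule class, gave the opposite direction for Ace. Each cell took 1 class, so none of them was in the injured class. Proximal tubule-gated cells with 2 or more of the 5 injury markers (2112 cells) had Ace at 46.2 CPM, above the 34.6 of uninjured cells (log2 ratio 0.42, 0.33 to 0.51), and so in every library (0.48 to 0.86). Agtr1a in them was at 22.2 CPM, within error of uninjured cells (-0.08, -0.21 to 0.05), and Agt was higher, at 59.7 CPM (0.61, 0.53 to 0.69), again in all 5 libraries. Median depth was 11610 UMIs in the injured class, 9490.5 in these cells and 4599 in uninjured cells. Deeper cells pass a marker count more readily. For the cells with 2 or more injury markers, the parts of depth and of segment make-up in these levels were not tested. Of these groups, the injured class and the uninjured cells were also gated on counts thinned to 1000 UMIs. That left 25 injured cells, with log2 ratios of -0.51 (-1.58 to 0.37) for Ace, -1.13 (-3.01 to 0.23) for Agtr1a and 0.29 (-0.36 to 0.88) for Enpep. All 3 intervals included 0, so none of these differences was detectable with that gate. Clusters named from the same markers gave -1.52 for Ace and -0.78 for Agtr1a. The cluster named injured tubule held 870 cells, of which 41% were gated as proximal tubule.

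**Figure D4:**
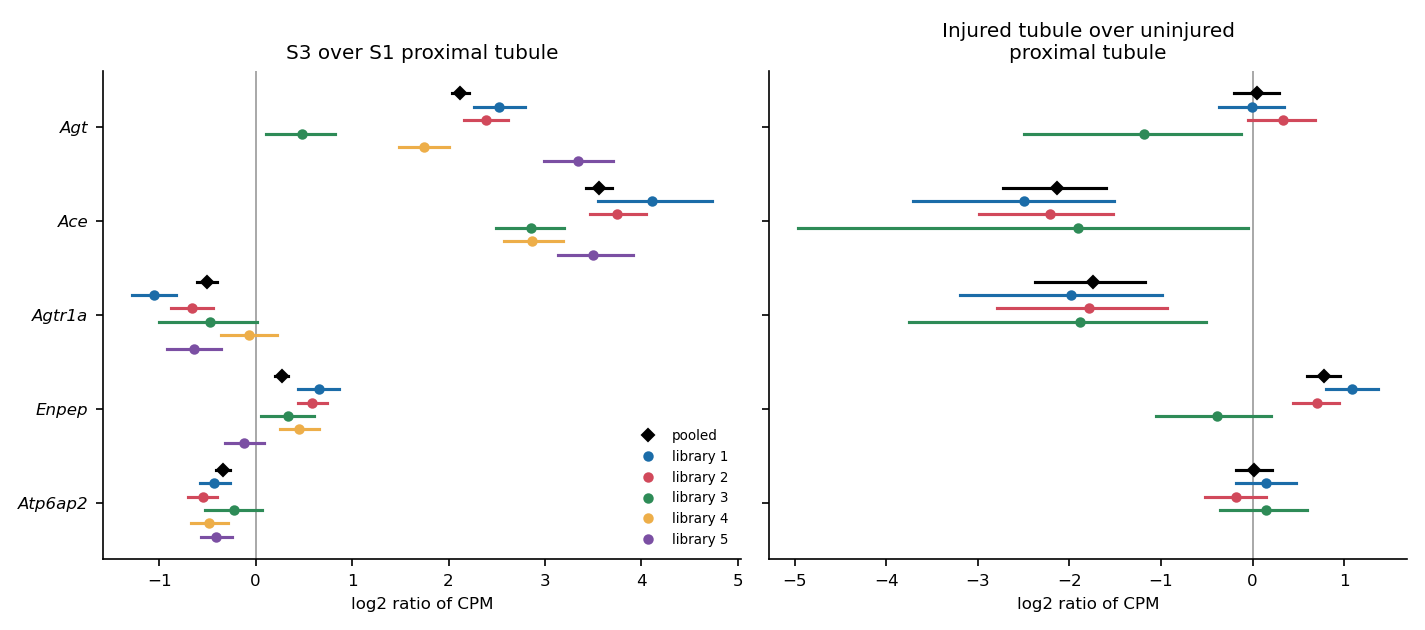
Log2 ratio of CPM for 5 genes, S3 over S1 proximal tubule at the left and injured tubule over uninjured proximal tubule at the right. Diamonds are pooled values, circles are libraries with at least 20 cells in both groups, and lines are exact conditional 95% intervals of counting error. Ace is higher in S3 in all 5 libraries (2.85 to 4.11) and lower in injured cells in all 3 libraries that gave a value. Library 3 had only 2 Ace UMIs in injured cells.

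Among 20 other genes of the system, 4 of the 5 listed as receptors were nearly silent. Agtr1b and Agtr2 had 1 UMI each in all kept cells, Mrgprd had none, and Mas1, the receptor of angiotensin-(1-7), was at 0.635 CPM, close to the 0.695 CPM of the droplets. The fifth, Lnpep, an aminopeptidase that binds angiotensin IV, was at 34.7 CPM over all kept cells, against 19.5 CPM in the droplets. Its highest levels were in non-classical monocyte-like cells (166 CPM, 85.6 to 289, from 12 UMIs), neutrophils (145 CPM, 128 to 163) and podocytes (93.7 CPM, 65.6 to 129.7). These intervals overlapped, so no leading class is read for Lnpep. Of the peptidases that form or remove angiotensins, Mme (neprilysin) was led by podocytes at 200.3 CPM (158 to 250.4), as Enpep was, and intercalated cells at 163 CPM (139.6 to 189.8). Mme was 1 of 12 other genes measured to pass 2-fold between the segments, where 4.45% of all genes were that much higher in S3. It was at 60.3 CPM in S3 and 10.6 in S1 cells (log2 ratio 2.51, 2.40 to 2.62), the direction of Agt and Ace. The droplets held Mme at 17.1 CPM, above its S1 level, so expression in S1 cells is neither read nor excluded. In the injured class Mme (1.91, 1.74 to 2.08) and Thop1 (1.40, 1.07 to 1.70), another peptidase that cuts angiotensin I, were past 2-fold higher and Anpep (aminopeptidase N) past 2-fold lower (-4.05, -5.37 to -3.01), which makes 2 of 12 genes higher and 1 lower where 29.6% and 11.5% of all genes were, so these shares are no result about the list. The mast cell chymases Cma1 and Mcpt4 had 39 and 0 UMIs in the kept cells, yet stood at 4.12 and 3.8 CPM in the droplets.

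The genes whose levels over 17 classes of at least 50 cells were most like each member's are given as a description. Pearson's r was taken on log2(CPM + 10) over 10843 genes, in classes that share libraries and differ in depth. For Atp6ap2 they were Atp6ap1 (0.867), Atp6v0e (0.848), Hepacam2 (0.843), Atp6v0c (0.821) and Aqp6 (0.812), of which 3 are parts of the vacuolar proton pump. For Enpep they were led by Htra1 (0.977) and Spats2l (0.915), for Agtr1a by Pcsk5 (0.967) and Pcdh17 (0.914), for Ren1 by Dgkb (0.967) and Rergl (0.966), for Agt by Tmigd1 (0.955), Mep1a (0.953) and Slc10a2 (0.949), and for Ace by Chst7 (0.887) and Tmem267 (0.872). Aqp6 is itself a marker of the intercalated class. The 31 non-classical monocyte-like cells were too few to count as a class here, so the likeness for Ace does not include its highest level. Among the members, the highest r was 0.76, between Agtr1a and Enpep.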

How the data were processed

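The authors deposited raw UMI counts, made with Cell Ranger 6.0 against mm10 per the labels and the study's methods, as 1 matrix of 5 libraries with no cells called. Cells were called per library by the 2 steps of Cell Ranger (10% of the 99th percentile of the top 3000 barcodes, then a comparison with the ambient profile over 10000 simulations at an adjusted p of 0.01), with at least 200 genes and at most 25% mitochondrial counts. A cell took the class of highest mean scaled marker level (at least 3 markers detected, score at least 0.1). S1 and S3 cells had 3 or more markers of their segment and at most 1 of the other. CPM came from summed counts, with exact Poisson intervals, exact conditional intervals for ratios and exact Clopper-Pearson intervals for shares. With no replicates, no test was run. Calling and gating were tested on simulated data, where the gates put at least 111 of 200 cells of each of 20 classes in their class, the lowest being proximal tubule S3. The simulated cells were drawn from the summed profiles of classes these same gates had formed. So their recovery does not show that the classes are correct. Doublets were removed only in an alternative, 0.8% per 1000 cells by Scrublet score. The members, markers, the 20 other genes and the rules for naming genes were chosen with earlier results of these data known, and the bins along the tubule after the values were seen. Versions were Python 3.11.15, scipy 1.17.1, scanpy 1.11.5 and leidenalg 0.10.2. The study's spatial and knockout experiments were not analysed here. The values of 1 of the 20 other genes are not reported here.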

Additional observations from a re-analysis of the deposited data

How the results depend on the processing

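Over 16 log2 ratios and 15 alternatives, 169 of 217 values stayed within the main interval of counting error, 46 fell outside it with the same sign or from a ratio whose interval included 0, and 2 took the opposite sign of a ratio whose interval excluded 0. The cause was not tested. The 2 were Ace in injured cells (0.42 with proximal tubule-gated cells of 2 or more injury markers in their place) and Enpep S3 over S1 (-0.05 with gates on thinned counts). With 2 or more injury markers, Agt was 0.61, Agtr1a -0.08 and Enpep 0.22. With clusters in place of gates, injured Ace was -1.52 and Agtr1a -0.78, and podocyte Enpep 2.47. With at most 10% mitochondrial counts, S3 over S1 was 3.30 for Ace, 1.79 for Agt and -0.35 for Agtr1a, injured over uninjured 1.02 for Enpep and 0.47 for Agt, and the lead 5.09 for Ace, 4.35 for Enpep and 2.34 for Atp6ap2. With gates on thinned counts, S3 over S1 was 4.00 for Ace, 2.81 for Agt, -0.98 for Agtr1a and -0.68 for Atp6ap2, and injured over uninjured -0.51 for Ace, -1.13 for Agtr1a, 0.36 for Atp6ap2, 0.29 for Agt and 0.29 for Enpep. As a mean over cells, the mural lead was 2.52 for Agtr1a and 9.60 for Ren1, and S3 over S1 2.22 for Agt. Without cells whose second class scored near the first, the lead was 4.51 for Enpep and 9.54 for Ren1, and without the highest Scrublet scores 8.38 for Ren1.

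Leaving out 1 library at a time gave leads of 8.21 to 9.51 for Ren1, 1.40 to 1.55 for Agt, 4.45 to 4.67 for Ace, 0.72 to 2.33 for Agtr1a, 3.94 to 4.15 for Enpep and 2.56 to 2.83 for Atp6ap2. S3 over S1 ran 1.95 to 2.60 for Agt, 3.42 to 3.66 for Ace, -0.63 to -0.42 for Agtr1a, 0.11 to 0.42 for Enpep and -0.46 to -0.28 for Atp6ap2. Injured over uninjured ran -0.14 to 0.20, -2.51 to -1.91, -1.79 to -1.67, 0.63 to 0.94 and -0.10 to 0.15 in the same order. Clusters gave no mural, non-classical monocyte or intercalated name, and the Ace lead had too few cells without library 2 or 3, so 6 values could not be had. Of the 15 alternatives, 3 were chosen after seeing the data. No paired analysis was possible because each condition has 1 sample and libraries are not tied to conditions.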

Other observations

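In mural cells Ace was at 82.5 CPM (37.7 to 157) from 9 UMIs in the 16 cells with 10 or more Ren1 UMIs and at 15.1 CPM (3.11 to 44.1) from 3 UMIs in the other 51, and 7 of these 12 UMIs came from the 5 mural cells of library 4, so no difference is read. In the same order Agtr1a was at 55.0 CPM (20.2 to 119.8) and 80.5 CPM (46.0 to 131), and Atp6ap2 at 64.2 CPM (25.8 to 132) and 65.4 CPM (34.8 to 112).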
